A study of Mus musculus with 6 samples.

Results

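Opposite-strand RNAs are transcripts named for a neighbouring gene on the other DNA strand, with the ending "os" added to that gene's name. Gene names in the files were searched for those ending in os, with or without a digit, whose stem was itself a gene name. Of 326 such names, 24 had no partner, and the other 302 gave 305 genes with 260 sense genes, out of 58354 genes in all. Dlx6os1, Nkx2-2os and Tmem147os each had a pair of gene records. All 305 lay on the strand opposite their sense gene.

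The cells were GL261, a mouse glioma line, and total RNA was taken 4 h after 1 uM sodium chloride (libraries 1, 2 and 3) or 1 uM sodium propionate (libraries 1, 4 and 5). Both salts supply sodium, so the groups differ in the anion, and the labels name no genetic change in either. Propionate is a short-chain fatty acid, one of the main products of fermentation in the gut. Separate cultures are not stated in the labels, and the p-values therefore reflect the spread between these libraries only, which may be technical. Levels are scaled TPM, a relative transcript abundance corrected for length, given as mean ± SD with n = 3 per group. Values by library are listed in the order chloride 1, 2 and 3, then propionate 1, 4 and 5. Differences are on the log2(TPM + 1) scale, propionate minus chloride, with a standard error (SE), and understate changes of low genes.

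An antisense RNA can be made from a promoter it shares with the sense gene, from inside that gene, or from a start site beyond its far end. Such RNAs are known to act on chromatin, splicing or RNA stability at their locus, to host small RNAs, or to encode small proteins, and many are short-lived nuclear transcripts removed by the exosome. Because both RNAs come from the same piece of DNA, measuring them apart depends on keeping the strand of each read.

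The deposited values held between 9.15 and 11.3 Gb of counted bases per library. Propionate 4 and 5 held the most, 11.3 and 11.1 Gb, while all chloride libraries and propionate 1 held 9.15 to 9.47 Gb. Chloride 3 and propionate 1 covered 71452 and 71192 transcripts, fewer than the 81178 to 82370 of the other 4 libraries. Of 8 glioma and neural progenitor markers, 7 reached 1 TPM, among them Nes, Vim and Sox2. Of 8 microglia and macrophage markers, only Csf1r did, Itgam, Adgre1, Tyrobp and C1qa were listed at 0 in all 6 libraries, and the summed level was 1.4 to 1.58 TPM with chloride and 1.5 to 2.05 TPM with propionate. The library kit keeps strand, per the labels, but the StringTie command in the file headers carried a strand option in 0 of the 6 libraries. Of 2456 single-exon models assembled from reads, 90.1% to 93.0% had no strand, depending on the library. The sources used here do not give the strand setting of the alignment. Where exons of a pair, or of any other genes on opposite strands, overlap, their reads may therefore be mixed.

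In the annotation, the exons of 170 of the 305 genes (55.7%) overlapped an exon of the sense gene, and 80 (26.2%) overlapped its introns alone. Another 41 (13.4%) were divergent, pointing away from the sense gene without touching it, and 14 (4.59%) were convergent, pointing towards it. Transcription start sites of the pair lay within 1000 bases in 74 pairs, 31 of them divergent. Most, 258, were of the antisense class, while 11 were protein-coding, and 295 had at least 2 exons.

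Divergent pairs are of interest because the 2 RNAs can start from the same stretch of DNA. Of the divergent pairs with starts within 1000 bases and a mean of at least 1 TPM, 4 had a single RefSeq start site for each gene (GRCm38.p6). The DNA between them is printed on the sense gene's strand, from just after the opposite-strand start to just before the sense start. Capitals mark the GC box GGGCGG, the CCAAT box and TATAAA on either strand, with overlaps allowed.
Map2k3os to Map2k3, chr11:60931868-60932053, plus strand: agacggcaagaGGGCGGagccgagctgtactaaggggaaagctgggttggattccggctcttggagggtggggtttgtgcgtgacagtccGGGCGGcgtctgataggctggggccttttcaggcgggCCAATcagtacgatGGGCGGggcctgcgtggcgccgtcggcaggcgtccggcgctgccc
Etaa1os to Etaa1, chr11:17953876-17953969, minus strand: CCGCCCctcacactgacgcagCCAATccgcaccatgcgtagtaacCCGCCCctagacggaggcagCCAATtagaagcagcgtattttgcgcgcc
Stamos to Stam, chr2:14073935-14074099, plus strand: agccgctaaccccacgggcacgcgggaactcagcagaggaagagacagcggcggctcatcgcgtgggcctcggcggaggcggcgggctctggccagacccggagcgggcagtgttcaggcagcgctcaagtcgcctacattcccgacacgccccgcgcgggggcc
Ccpg1os to Ccpg1, chr9:72985377-72985503, plus strand: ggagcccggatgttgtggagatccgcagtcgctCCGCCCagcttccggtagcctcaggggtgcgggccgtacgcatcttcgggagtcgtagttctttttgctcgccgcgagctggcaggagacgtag

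These 4 stretches were 94 to 186 bases long and 61.7% to 72.7% G and C. GGGCGG or its complement occurred 3 times at Map2k3os, 2 times at Etaa1os, once at Ccpg1os and not at Stamos, and TATAAA was in none of the 4. In RefSeq windows from 250 bases before to 50 after a start, GGGCGG on either strand was in 48.0% of 25 windows of divergent members with starts within 1000 bases. It was in 28.6% of 217 windows of all matched members (182 names), and in 35.7% of the 32851 windows of all genes. In the 296 windows of sense genes it was in 51.4%, so the divergent members' share was no higher than that of the sense genes. TATAAA was in 0 of those 25 divergent windows, 7.83% of member windows and 13.6% of all windows. CCAAT was in 40.0% of the divergent windows, 33.6% of member windows and 37.4% of all windows. A match is a description of the letters only.

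For contrast, the 250 bases before the start of Kank4os, which lies inside the Kank4 gene without touching its exons and was far more abundant than Kank4 here, held 5 CG dinucleotides, 1 CCAAT box and neither of the other motifs.
Kank4os upstream, chr4:98793518-98793767, plus strand: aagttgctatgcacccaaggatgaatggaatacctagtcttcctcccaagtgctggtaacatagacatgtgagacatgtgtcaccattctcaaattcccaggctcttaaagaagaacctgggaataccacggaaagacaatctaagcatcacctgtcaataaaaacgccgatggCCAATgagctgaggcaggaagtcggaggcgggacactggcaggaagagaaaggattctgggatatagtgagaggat

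Most opposite-strand genes were silent or very low in these cells. Of the 305, 114 were listed at 0 in all 6 libraries, 96 in some, and 95 were above 0 in every library. A mean of at least 0.1 TPM was reached by 128 and at least 1 TPM, the minimum for testing, by 43 (14.1%), while 10 reached 10 TPM. Where models overlap, the quantifier can list a 0 for an RNA that is present. The 43 had a median of 2.09 TPM, against 12.6 TPM over all 15512 genes tested and 10.6 TPM over the 146 of 260 sense genes that were tested. Where the sense gene had at least 1 TPM, 39 of 175 opposite-strand genes were tested (22.3%) and 21 were at 0 throughout (12%). Where it had less, 4 of 130 were tested (3.08%) and 93 were at 0 throughout (71.5%). Of the 114 at 0 throughout, 93 were therefore partners of a sense gene that was itself under 1 TPM. Among the 43 tested genes, Spearman's rho between the level of the opposite-strand gene and that of its sense gene was 0.08 (n = 43 pairs, all measured in the same 6 libraries).

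Levels were also counted by position. Of the 14 convergent genes 5 were tested, with a median of 19.2 TPM, of the 41 divergent ones 9 (median 2.16 TPM), of the 170 with overlapping exons 24 (median 1.96 TPM) and of the 80 inside introns 5 (median 2.09 TPM). Among the 5 highest genes, 3 were convergent, namely Epb41l4aos, Slc7a6os and Oip5os1, which sit beyond the far ends of their sense genes.

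Rab26os was the highest, from an intron of Rab26, a small GTPase of secretory vesicles. It had 80.0, 87.4 and 61.6 TPM with chloride and 67.4, 70.1 and 68.9 TPM with propionate, against 5.98 to 8.82 TPM of Rab26. Chloride 3 was the lowest library and chloride 2 the highest, so the groups overlapped. Its spliced model of 298 nt held 58.3% of its TPM and a single-exon model of 478 nt that keeps the intron held 41.8%. The snoRNA gene Snord60 lies in that intron on the same strand.

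Brip1os had 52.5, 55.3 and 51.1 TPM, then 48.8, 54.8 and 53.4 TPM, beside 18.0 ± 1.07 TPM over the 6 libraries for Brip1, a DNA helicase that binds BRCA1. The groups overlapped. A 2-exon model of 4423 nt carried 91.2% of its TPM, with mean coverage of 218 ± 38.2 in its first exon and 230 ± 34.0 in its second (SD over the 6 libraries), and touches no Brip1 exon. Over all Brip1os models, 20.2% of exonic bases overlapped exons of Ints2 and Med13 on the other strand. The share within the 2-exon model was not counted.

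Epb41l4aos, beside a gene for a protein of the band 4.1 family of membrane-skeleton proteins, had 43.0, 42.3 and 48.8 TPM, then 41.8, 39.6 and 41.5 TPM. Every propionate library lay below every chloride library, by a narrow margin. Slc7a6os is one of the 11 protein-coding members, related to a yeast factor for nuclear import of RNA polymerase II, and its neighbour Slc7a6 is an amino acid exchanger. It had 36.7, 35.6 and 36.4 TPM, then 28.9, 32.4 and 32.2 TPM, again without overlap.

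Oip5os1, known as Cyrano, is a long noncoding RNA with a conserved and unusually long match to the microRNA miR-7, which it is known to destroy. It had 21.1, 19.6 and 19.3 TPM, then 18.0, 18.7 and 18.3 TPM, and the groups did not overlap. The 8300-nt model, 65.7% of its TPM, held 2 matches to the miR-7 seed. A window of 26 bases ending at each match was set against the 14 bases that would pair with the other end of miR-7a, at the best offset. The first window, from position 744 of the model, matched 5 of the 14, and the second, from position 2934, matched 13. The second site and the 2 RefSeq miR-7 sequences are shown because that pairing sets this RNA apart, with the seed (bases 2 to 8) and its match in capitals.
mmu-miR-7a-5p: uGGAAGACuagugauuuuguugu
mmu-miR-7b-5p: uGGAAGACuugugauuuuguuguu
Oip5os1, second match, chr2:119602136-119602161 (mm10), plus strand: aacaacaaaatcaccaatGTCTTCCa

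Cebpzos, which encodes a small mitochondrial protein, had 17.9, 16.3 and 19.6 TPM, then 14.6, 19.0 and 21.8 TPM, with overlapping groups. Its models of 602 and 753 nt traded places: the shorter had 11.1, 0.011 and 9.87 TPM, then 0, 13.9 and 17.5 TPM, so it was near 0 in chloride 2 and listed at 0 in propionate 1. The total moved far less than either model. Foxd2os had 14.2, 13.5 and 15.7 TPM, then 17.2, 13.5 and 14.9 TPM, and Kank4os had 12.4, 14.1 and 13.5 TPM, then 12.8, 13.2 and 14.0 TPM. In both the groups overlapped.

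Of the 43, 9 stood above their sense gene, each in all 6 libraries. The widest gap was at Kank4os: Kank4, an adaptor of cell adhesions, was listed at 0 in 5 libraries and had 0.0435 TPM in propionate 1. The 3 exons of Kank4os were covered 42.3 ± 9.38, 67.3 ± 3.88 and 64.7 ± 7.77 deep. Several partners are developmental transcription factors. Foxd2os stood over Foxd2 (1.02 TPM over the 6 libraries), Foxl2os over Foxl2 (1.09 TPM), Hoxd3os1 over Hoxd3 (0.053 TPM) and Six3os1 over Six3, which was listed at 0 in 4 libraries. Most of the Foxd2os value came from 6 models assembled from reads. Its 2 reference models averaged 0.258 and 1.03 TPM, so its height over Foxd2 rests on the assembled models. Rab26os and Brip1os are given above, and the others were Pigbos1, over the GPI-anchor enzyme gene Pigb (3.97 TPM), and Chrna1os, over the gene of a muscle acetylcholine receptor subunit (0.254 TPM).

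Foxl2os had 4.72, 3.76 and 4.17 TPM, then 3.72, 3.94 and 2.91 TPM. Hoxd3os1 had 2.65, 3.34 and 2.86 TPM, then 3.18, 2.58 and 2.93 TPM. Six3os1 had 2.0, 1.58 and 2.56 TPM, then 2.04, 1.72 and 1.71 TPM. In these 3 RNAs the groups overlapped. Pigbos1, which encodes a microprotein of mitochondria, had 16.7, 10.1 and 10.2 TPM, then 12.5, 13.8 and 14.0 TPM, and Chrna1os had 2.23, 2.80 and 1.74 TPM, then 1.55, 2.19 and 2.47 TPM. The groups overlapped in both.

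**Figure D1:**
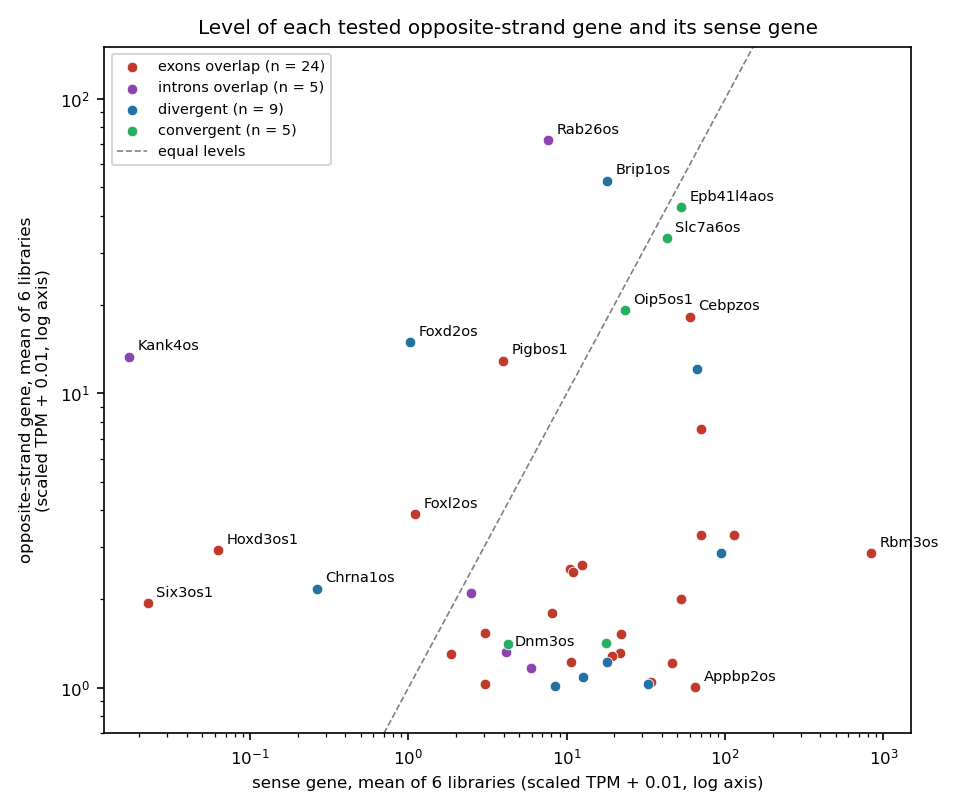
Mean level over 6 libraries of each of the 43 tested opposite-strand genes (vertical, scaled TPM + 0.01, log axis) against its sense gene (horizontal, same scale), coloured by position, with a dashed line at equal levels. The 9 genes above the line reach from Rab26os, at 72.6 TPM, to Six3os1, at 1.93 TPM, and Rbm3os lies farthest to the right.

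The other 34 stood below their sense gene on average, 32 of them in every library and 15 under 0.1 times its level. The median ratio over the 43 was 0.223. Rbm3os had the widest gap, 2.86 TPM against 835 TPM for Rbm3, a cold-induced RNA-binding protein. The further genes with overlapping exons were Rab10os, Sorbs2os, Sp3os, Wdr83os, Lrrc75aos2, Ino80dos, Has2os, Zfp335os, Faddos, Zbtb11os1, Bcas1os1, Nkx2-2os, Junos, Uckl1os, Zeb2os, Tnk2os, Mypopos and Appbp2os, between 0.997 and 7.54 TPM. Divergent were Map2k3os, beside the kinase gene Map2k3, at 12.1 TPM, and Tmem147os, Etaa1os, Bloc1s6os, Stamos and Ccpg1os at 1.00 to 2.86 TPM. Slc36a3os, Dnm3os and Nr6a1os lay in introns, and Brd3os and Fbxl12os were convergent, all at 1.16 to 2.09 TPM. Appbp2os passed the minimum because its mean before scaling was 1.01 TPM, and Ube4bos3, at 0.963 TPM, was the first to miss it. Below it followed Sap30bpos, Far1os, Ccdc142os, N4bp2os, Rsf1os2, Man2c1os, Zfhx2os, Mettl5os and Taco1os, down to 0.614 TPM.

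Dnm3os, from an intron of the dynamin gene Dnm3, is the host RNA of miR-199a and miR-214. All of its TPM, 1.47, 1.46 and 1.31 then 1.15, 1.18 and 1.30, came from a single-exon model of 7928 nt that spans both microRNA hairpins, and its 4 spliced models were listed at 0 in all 6 libraries. Propionate libraries lay just below chloride libraries without overlap. The RefSeq mature sequences on its strand are printed with the seed in capitals. The 4 seeds differ from each other.
mmu-miR-199a-5p: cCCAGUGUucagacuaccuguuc
mmu-miR-199a-3p: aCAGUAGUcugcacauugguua
mmu-miR-214-5p: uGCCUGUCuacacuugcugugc
mmu-miR-214-3p: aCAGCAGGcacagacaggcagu

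Exon coverage shows which parts of an opposite-strand gene its value rests on. In 23 tested genes with overlapping exons, some exons touched a sense exon and others did not. Exons were counted whole, and free exons were free of the named sense gene only. Ino80dos had 15.0% of its exonic bases in Ino80d exons, but 31.9% when Ndufs1 on the same strand as Ino80d was included. For Uckl1os the shares were 29.7% with Uckl1 and 37.7% with Zfp512b included. The touching exons were covered deeper in 12 genes, over 2 times deeper in 8, and the free exons were deeper in 11, over 2 times deeper in 6, with a median ratio of 1.09. Rbm3os was covered 28.3 ± 5.44 deep in its touching exon and 4.00 ± 2.50 in the others (SD over the 6 libraries). Of the 303 bases of that touching exon, 94 lay in Rbm3 exons. At Faddos the free exon was at 0 and the touching exon at 8.65 ± 2.17. In the other direction, Pigbos1 had 75.1 ± 17.4 in its free exon against 4.18 ± 0.755, and Appbp2os 4.47 ± 1.95 against 0.229 ± 0.205. The deepest coverage of Rbm3os and Faddos was therefore in exons that touch the sense gene, and that of Pigbos1, Appbp2os, Lrrc75aos2 and Sp3os in exons that do not. The part of sense reads in these values was not tested.

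**Figure D2:**
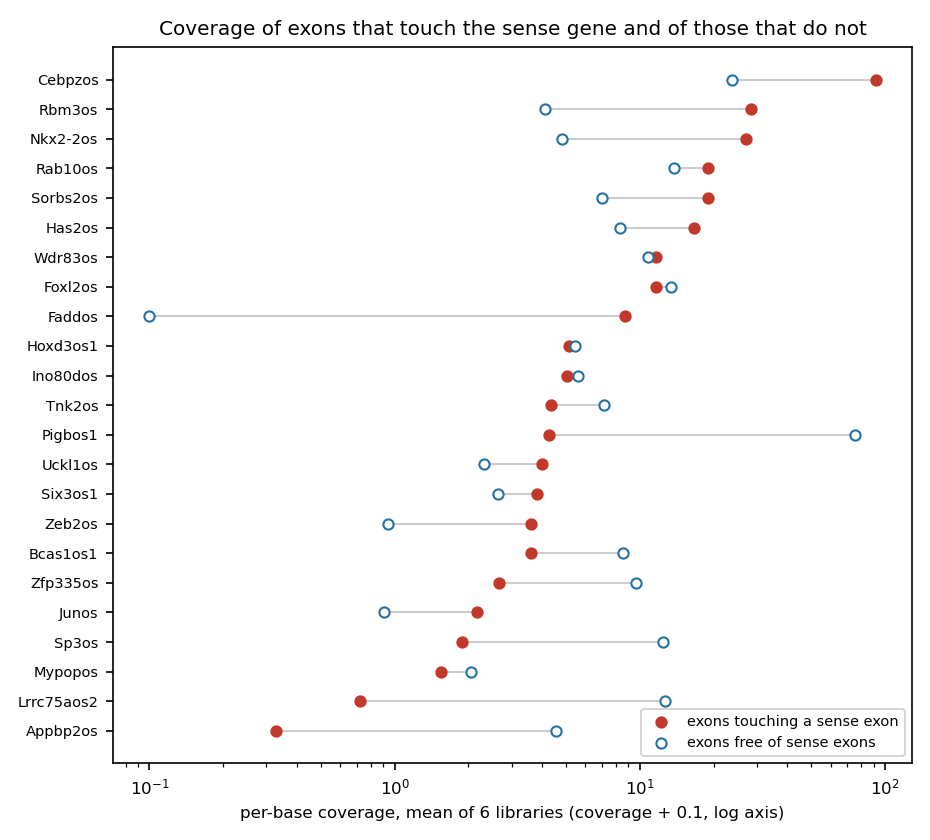
Per-base coverage, mean of 6 libraries (coverage + 0.1, log axis), of exons that touch a sense exon (filled) and of exons free of sense exons (open) in 23 opposite-strand genes. Rbm3os, Nkx2-2os and Faddos have deeper touching exons, and Pigbos1, Lrrc75aos2 and Appbp2os deeper free exons.

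The comparison of propionate with chloride asked whether any opposite-strand RNA changed within 4 h. Limma called 0 of 43 at an adjusted p under 0.05, against 0.00645% of all genes tested, and the smallest adjusted p was 0.913. At an unadjusted p under 0.05 there were 4 lower (9.3%) and 0 higher, against 2.98% and 2.16% of all genes (5.14% in either direction). One of the 4, Appbp2os, was above 1 TPM with chloride only and passed the minimum through that group. Of the 43, 8 were under 1 TPM in one group, 6 with propionate and 2 with chloride, and the 35 others held 3 lower at that p. With voom on estimated read numbers 0 were called and 3 had an unadjusted p under 0.05. The 95% interval of the difference stayed within 2-fold either way on this scale for 42 of the 43, the exception being Wdr83os (-0.66 to 1.24). In bulk RNA, a change in the number of cells making an RNA and in the amount per cell cannot be told apart.

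The 4 genes with the smallest p in the lower direction were Slc7a6os, Appbp2os, Has2os and Sp3os. Appbp2os overlaps exons of Appbp2, a gene for a protein that binds the amyloid precursor protein. Appbp2os had 1.35, 1.32 and 1.39 TPM with chloride and 0.463, 0.865 and 0.602 TPM with propionate. The 3 chloride libraries were nearly equal and every propionate library lay below them, but the gene was tested only because the chloride values raised its mean, and without any 1 chloride library it fell under the minimum. The difference was -0.52 (SE 0.17, limma adjusted p = 0.913), while Appbp2 itself had a difference of 0.05 (SE 0.07).

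Slc7a6os, given above, differed by -0.21 (SE 0.06), and Slc7a6 by -0.06 (SE 0.06). Has2os lies across Has2, the hyaluronan synthase gene, and is known for affecting its expression. It had 1.97, 2.68 and 2.42 TPM, then 1.71, 1.48 and 1.71 TPM, without overlap, a difference of -0.35 (SE 0.14). Has2 had 53.0 ± 3.92 TPM with chloride and 52.1 ± 0.372 TPM with propionate. An assembled model of 7463 nt held 94.3% of the Has2os value, so the difference is that of this model. With reference transcripts alone, Has2os was not in the fit. Sp3os, which overlaps exons of the transcription factor gene Sp3, had 4.72, 3.93 and 3.04 TPM, then 2.48, 3.28 and 2.34 TPM. Its groups overlapped through propionate 4, and the difference was -0.40 (SE 0.17). The adjusted p of Slc7a6os, Has2os and Sp3os was 0.913 each with limma.

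In the higher direction the smallest p belonged to Nr6a1os, Fbxl12os, Stamos and Etaa1os. Nr6a1os (mean 0.945 TPM with chloride, 1.38 TPM with propionate) and Stamos (0.888 TPM, then 1.14 TPM) passed the minimum through propionate, the group where they were high. Nr6a1os, in an intron of a nuclear receptor gene, had 0.873, 1.11 and 0.849 TPM, then 1.87, 1.14 and 1.11 TPM, with propionate 1 alone well above the rest (difference 0.28, SE 0.19, and 0.13 without that library). Fbxl12os, beside an F-box gene, had 0.995, 1.45 and 1.36 TPM, then 1.29, 1.38 and 1.93 TPM (difference 0.16, SE 0.17, and 0.07 without chloride 1 or 0.05 without propionate 5). The groups overlapped in both. Stamos, divergent from the endosomal sorting gene Stam, had 1.31, 0.811 and 0.541 TPM, then 0.848, 1.51 and 1.08 TPM (difference 0.19, SE 0.22). Etaa1os, divergent from a gene for an activator of the ATR kinase, had 1.83, 1.06 and 0.327 TPM, then 1.14, 1.36 and 1.55 TPM (difference 0.24, SE 0.28). Chloride 3 was the lowest library in the last 2, and without it the difference was 0.05 for Stamos and -0.05 for Etaa1os. Without propionate 1 it was 0.29 for Stamos, and without chloride 1 it was 0.50 for Etaa1os.

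**Figure D3:**
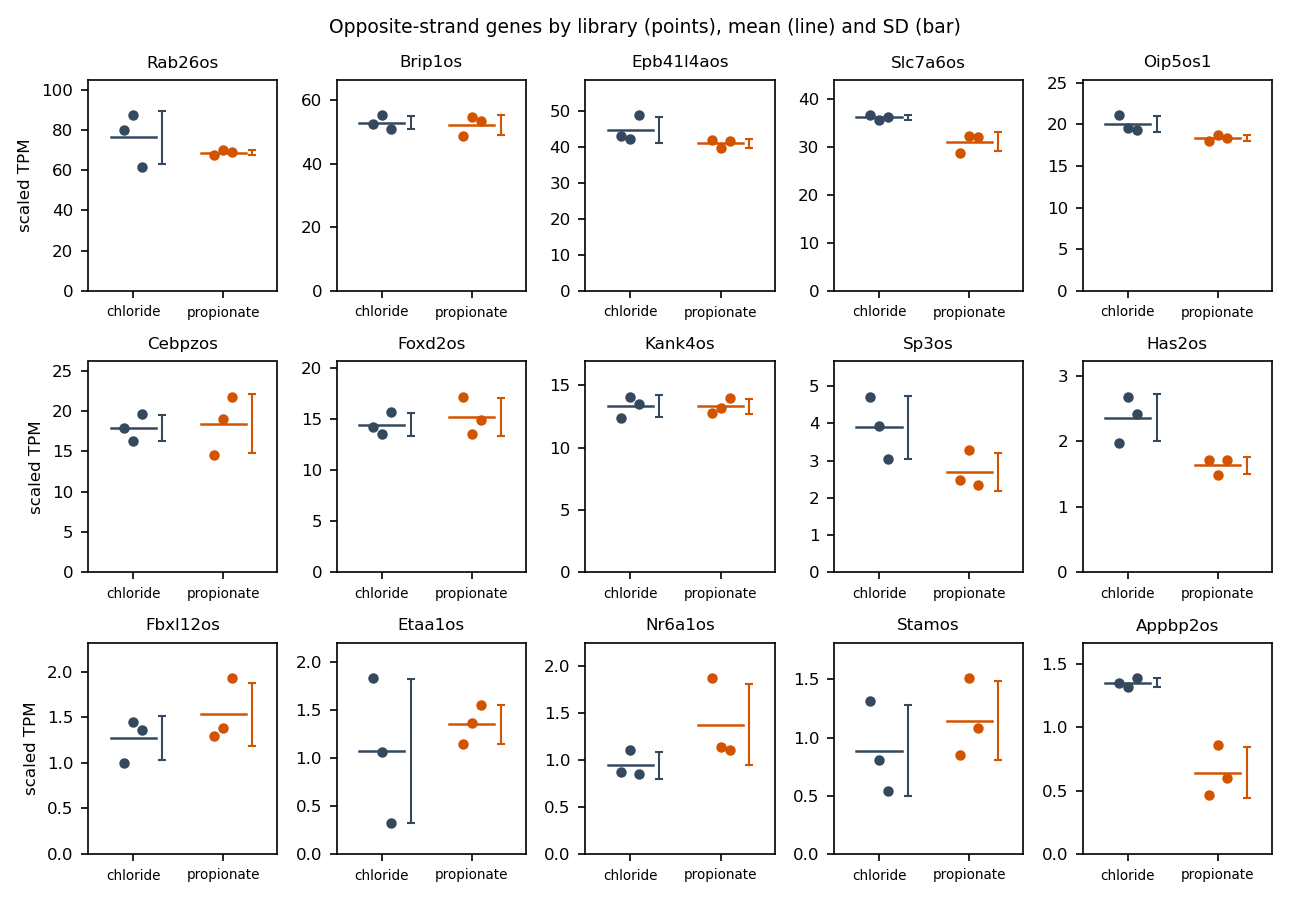
Scaled TPM by library (points), group mean (line) and SD (bar) of the 8 highest opposite-strand genes and of the 4 with the smallest p in each direction, each panel from 0. Slc7a6os, Has2os and Appbp2os show no overlap between the salts, and Etaa1os spans 0.327 to 1.83 TPM within chloride.

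By sign alone, more of the differences were negative than positive. Of the 43, 29 were lower and 14 higher with propionate (67.4% lower, against 48.2% of all genes), with a median difference of -0.10 against 0.01 over all genes. Without chloride 2, and likewise without chloride 3, the median was -0.05. The groups did not overlap in 7 genes that were lower (16.3%) and in 0 that were higher, against 6.47% and 5.27% of all genes. The 7 were Epb41l4aos (-0.12, SE 0.07), Slc7a6os, Oip5os1 (-0.12, SE 0.06), Ino80dos (-0.30, SE 0.15), Has2os, Dnm3os (-0.13, SE 0.14) and Appbp2os. Appbp2os again passed the minimum through chloride, and the 35 genes at 1 TPM or more in both groups held 6 of the 7. Of those 35, 23 were lower and 12 higher, with a median of -0.08. The difference was -0.06 for Epb41l4aos without chloride 3, -0.08 for Oip5os1 without chloride 1 and -0.19 for Ino80dos without propionate 5. The list's median, after centring each gene, was 0.01, 0.08 and 0.02 in the chloride libraries and -0.06, -0.04 and -0.05 in the propionate libraries. With TPM as deposited 34 were lower (79.1%), but so were 76.2% of all genes, whose median was then -0.08.

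The differences were also split by position. The 29 inside or across the sense gene had a median difference of -0.13 (21 lower, 8 higher), and the 14 outside it -0.03 (8 lower, 6 higher). The difference between these positions was not tested. Other gene classes are given beside these: 239 further genes of the antisense class had a median of -0.15 (72.8% lower), and 270 models inside introns on the sense strand or of the provisional TEC class had -0.20 (86.3% lower). Protein-coding genes had 0.01 (45.3% lower). Limma called 1 of the 239 antisense-class genes, higher with propionate, and it was the only gene called among all 15512 tested. In the antisense class the library medians were -0.03, 0.08 and 0.20 with chloride and -0.07, -0.08 and -0.07 with propionate. In the sense-intronic and TEC models they were -0.05, 0.10 and 0.24, then -0.13, -0.10 and -0.08, with chloride 3 the highest in both. Those models were taken by annotated class, and whether each TEC model lies in an intron was not checked. The part of intronic signal in the opposite-strand values was not tested.

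**Figure D4:**
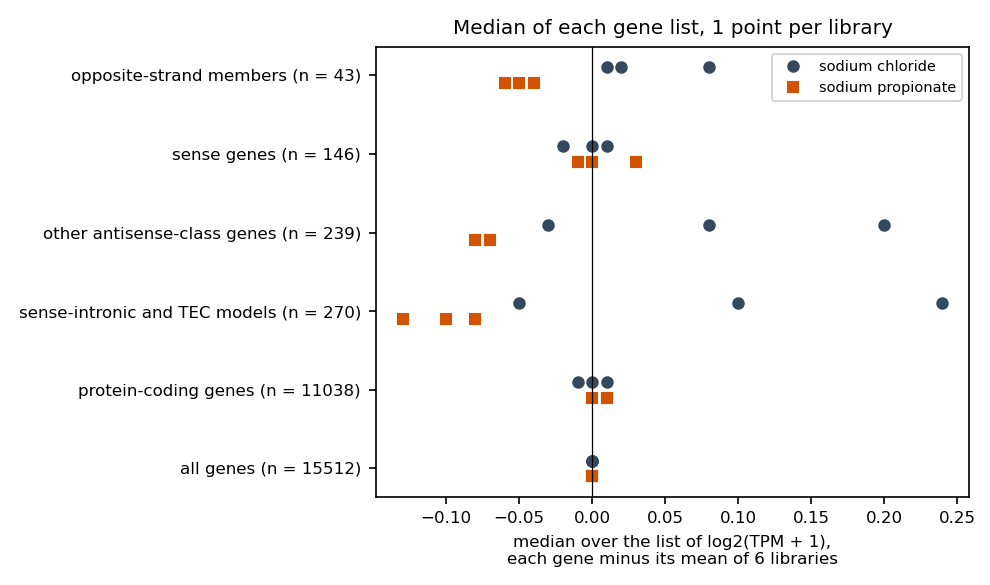
Median over each gene list of log2(TPM + 1), centred per gene on the mean of 6 libraries, with 1 point per library (circles, chloride; squares, propionate). The 3 propionate medians of the opposite-strand genes lie at -0.06 to -0.04, below the 3 chloride medians at 0.01 to 0.08. The sense-intronic and TEC models spread wider, from -0.13 to 0.24.

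Of the 146 sense genes tested, 71 were lower and 75 higher, with a median of 0.00, and limma called 0. At an unadjusted p under 0.05 there were 3 lower and 4 higher of the 146, against 2.98% and 2.16% of all genes. With voom on estimated read numbers 0 were called. The smallest p was at Anxa11, an annexin, with 5.49, 4.30 and 4.72 TPM then 8.52, 6.42 and 7.03 TPM. Every propionate library was above every chloride library (difference 0.51, SE 0.13, limma adjusted p = 0.913), and with voom on estimated read numbers the difference was 0.14. Its partner Anxa11os was under the minimum for testing. The sense genes of the 39 pairs with both genes tested were lower in 24 and higher in 15 (61.5% lower), with a median of -0.02. The groups did not overlap in 5 lower and 2 higher of the 39, against 6.47% and 5.27% of all genes. Among them, Rab26 (-0.27, SE 0.10) and Lrrc75a (-0.24, SE 0.09) had an unadjusted p under 0.05. The difference of Rab26 was -0.14 with reference transcripts alone and -0.15 with library weights, and its unadjusted limma p was above 0.05 in both. For Lrrc75a the differences were -0.25 and -0.30.

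Within pairs, the log2 ratio of the opposite-strand gene to its sense gene was tested among 3525 pairs of neighbours on opposite strands within 5000 bases. Limma called 0 of the 39 member pairs, with a smallest adjusted p of 0.745, against 0.0284% of all pairs. At an unadjusted p under 0.05 there were 4 of the 39, against 6.5% of all pairs. The number was 1 of 39 with a pseudocount of 5 and 5 of 39 with library weights. Of the 4, Appbp2os (-0.57, SE 0.15), Sp3os (-0.40, SE 0.16) and Has2os (-0.32, SE 0.13) were lower relative to the sense gene, and Fbxl12os (0.45, SE 0.18) was higher. Appbp2os was in this fit only through its chloride values (mean 1.35 TPM, against 0.643 TPM with propionate). The count of 4 thus includes a pair that passed the minimum through the group where it was high. The ratio was lower in 25 pairs and higher in 14, with a median of -0.04. The 2 genes of a pair differed in the same direction in 22 of 39 pairs, and rho of their differences was 0.10, a description over pairs from the same libraries.

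**Figure D5:**
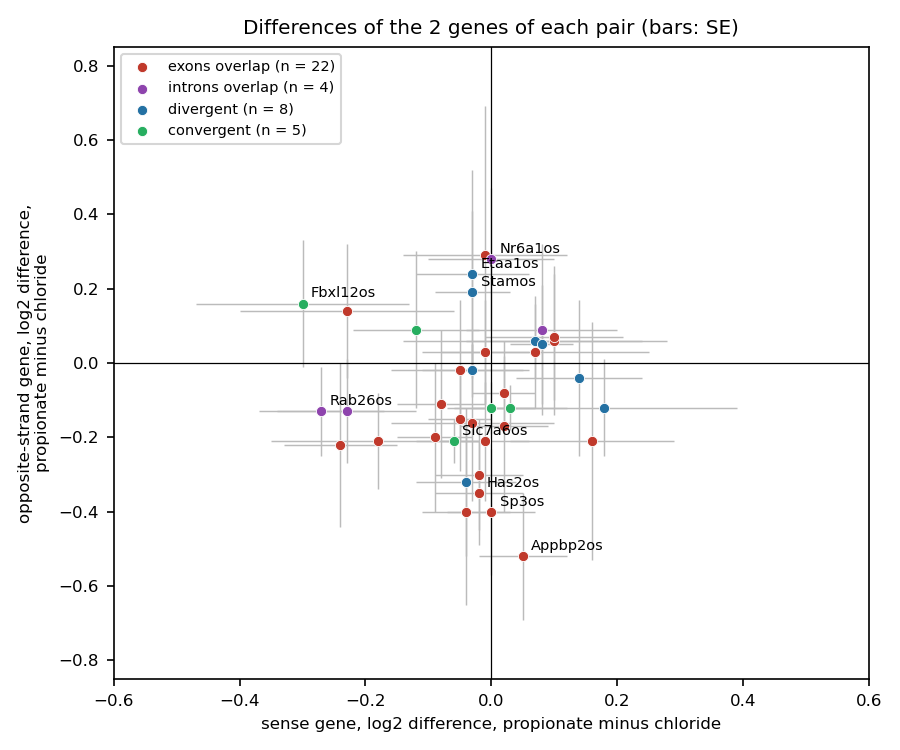
Log2 difference, propionate minus chloride, of each opposite-strand gene (vertical) and its sense gene (horizontal) in 39 pairs, coloured by position, with SE bars. The points spread from -0.52 to 0.29 vertically and from -0.30 to 0.18 horizontally, and 22 of the 39 pairs have the same sign on both axes.

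Genes that limit antisense and other short-lived nuclear RNAs, such as exosome subunits and the Integrator complex, were read beside them. Of 37 names 36 were found and 35 tested, limma called 0, and 1 had an unadjusted p under 0.05: Zfc3h1, a zinc-finger protein of the exosome targeting machinery, with 26.8 ± 1.59 TPM with chloride and 22.7 ± 1.66 TPM with propionate (difference -0.23, SE 0.08). By sign 22 were lower and 13 higher, with a median of -0.03. Among names ending in "as" or "ot", 9 genes were found and 7 tested, 5 lower and 2 higher, with a median of -0.23 and 0 called. The 2 higher were Leprot, which lies on the same strand as Lepr, and Hras, whose name ends so by chance. Znrd1as was the highest of the rest, with 5.51 ± 0.923 TPM, then 4.55 ± 1.18 TPM (difference -0.24, SE 0.18).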

How the data were processed

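The samples were 6 libraries of total RNA from GL261 cells, 3 per salt, grouped by the treatment in the labels. Libraries were made with a stranded TruSeq total RNA kit, per the labels' protocols. Per the submitters' processing notes, the tools were StringTie, HISAT2, fastp and bcl2fastq, and the build was mm10. Per the file headers, StringTie 2.1.1 estimated a common set of 157296 transcript models in each library, and the authors deposited coverage, FPKM and TPM for each, with no counts.

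TPM were summed per gene, and assembled models were joined to the reference gene whose exons they overlap. Each library was scaled by its median ratio to the geometric mean (factors 0.966 to 1.09). The test took 15512 genes that had a transcript of 200 nt or more and averaged 1 TPM or more before scaling. Limma 3.58.1 in R 4.3.3 compared their log2(TPM + 1) values two-sided, using a variance trend, and p-values were adjusted by Benjamini and Hochberg's method over those genes with a threshold of 0.05. Ratios of neighbours on opposite strands were tested the same way. The fits were tested on simulated data. Gene classes and exons came from GENCODE M21, and sequences from RefSeq (GRCm38.p6) and GENCODE. Files were read with Python 3.11.15 and pandas 2.3.3.

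Each member of at least 1 TPM was named. Values by library were given for the 8 highest, the 4 with the smallest p in each direction and those above their sense gene. Members and gene lists were chosen with earlier results of these data known. Alternatives covered the pseudocount, filter, scaling, models summed, variance model, voom and libraries left out.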

Additional observations from a re-analysis of the deposited data

How the results depend on the processing

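No member, sense gene or member pair was called under any of the 19 alternatives run for each. Members at an unadjusted p under 0.05 numbered 1 to 14, sense genes 3 to 18 and pairs 0 to 7. The highest counts were 14 of 43 members and 18 of 146 sense genes, both with library weights. For pairs the highest was 7 of 185, without a filter on low values. Shares of all genes at that p under the alternatives are not given here, so no excess is read from these counts. The median difference of the members (-0.10) was -0.04 with a pseudocount of 5, -0.03 without a filter on low values, -0.16 with TPM as deposited and -0.05 with quantile normalization, and -0.11 to -0.05 with 1 library left out (-0.05 without chloride 2 and without chloride 3). It was below 0 throughout, while Appbp2os ranged from -1.12 to -0.17, Has2os from -0.56 to -0.15 and Sp3os from -0.57 to -0.21.

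A member was in 15 to 19 of the alternatives, and 11 members were in all 19, since filters and left-out libraries drop low genes. Of the 43, 23 kept one sign in those they were in, and 20 with differences of at most 0.29 in size did not. Appbp2os was not in the fits without chloride 1, 2 or 3. With TPM as deposited the difference was -0.06 for Cebpzos, -0.03 for Foxd2os, -0.09 for Sp3 and -0.05 for Appbp2. Quantile normalization gave 0.00 for Kank4os and -0.04 for Sp3. Reference transcripts alone gave 0.80 for Has2, -0.03 for Appbp2 and 0.60 for Foxd2os. Library weights gave 0.00 for Brip1os, 0.06 for Kank4os and 0.01 for Slc7a6, and voom -0.01 for Cebpzos, -0.11 for Foxd2os and 0.00 for Kank4os. In the 4 better-covered libraries it was 0.00 for Brip1os and 0.03 for Kank4os. With 1 library left out, the ranges were -0.05 to 0.03 for Brip1os, -0.09 to 0.18 for Cebpzos, -0.02 to 0.14 for Foxd2os, -0.05 to 0.04 for Kank4os, -0.05 to 0.50 for Etaa1os, -0.05 to 0.08 for Sp3, -0.08 to 0.02 for Has2, -0.00 to 0.10 for Appbp2 and -0.10 to -0.03 for Slc7a6. The cause was not tested. No paired analysis was possible because the groups share only replicate number 1. Voom was not run for the ratio, since its weights are made per gene. The 3 libraries per salt limit the precision, with a median SE of 0.17 for members and 0.11 for all genes.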
